A study of Mus musculus with 8 samples.

Results

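The genes described here are 9 genes of the lens of the eye, the gamma crystallins Cryga, Crygb, Crygd, Crygf and Crygs and the lens fibre genes Mip, Lim2, Bfsp1 and Bfsp2, as measured in mouse retina. They were taken by name, and every probe set that the platform annotation gives to 1 of them alone was used, which made 10 probe sets of 45037 tested and 9 genes of 18193. Mip had 2 probe sets and each of the others had 1. A further 2 probe sets carry the name of a member together with another gene, and they were kept apart.

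The arrays hold RNA of mouse retina at postnatal day 40, from a strain given as BALB/c AJ and dissected away from the retinal pigment epithelium, per the labels' protocols. The groups are wild type (3 arrays), heterozygous for an Nxnl1 null allele (2 arrays) and homozygous null (3 arrays), and they share strain, age and housing under a light and dark cycle. Nxnl1 encodes rod-derived cone viability factor, and the study asked what its loss does to the retinal transcriptome. The labels give neither how the allele was made nor how many animals went into an array. The p-values thus cover only how far these samples lie apart, which may be technical.

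Crystallins are the abundant soluble proteins that give the lens its refractive index. Lens epithelial cells divide and become fibre cells, which elongate, fill with crystallins and then lose their organelles. The gamma crystallins are made mainly in fibre cells, and their small, tightly folded proteins pack the dense centre of the lens. Mip (aquaporin 0) and Lim2 are membrane proteins of fibre cells, and Bfsp1 and Bfsp2 (filensin and phakinin) form the beaded filament, an intermediate filament of fibre cells. Crystallins of the alpha, beta and gamma families have also been reported in mouse retina, so the members are not lens markers alone, and Cryab is a small heat shock protein found in many tissues.

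The 4 gamma crystallin genes Cryga, Crygb, Crygd and Crygf lie on chromosome 1 and Crygs lies on chromosome 16. In the reference annotation (GRCm38) Cryge, Crygd, Crygc, Crygb and Cryga follow each other in a row of 5 protein-coding genes. The sequence around the start of these genes is shown because the 4 of chromosome 1 were highest on another array than Crygs. The stretches run from 110 bases before the annotated start to base 50 after it, on the gene's own strand, from RefSeq's annotation of GRCm38.p6. Capitals mark TTTGTG and TATATA in the chromosome 1 genes and TATAAA in Crygs.
Cryga (chr1:65103314-65103473, minus strand): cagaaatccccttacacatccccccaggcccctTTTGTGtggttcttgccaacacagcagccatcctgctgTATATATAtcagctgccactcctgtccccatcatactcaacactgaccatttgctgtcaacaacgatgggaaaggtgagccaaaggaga
Crygb (chr1:65082241-65082400, minus strand): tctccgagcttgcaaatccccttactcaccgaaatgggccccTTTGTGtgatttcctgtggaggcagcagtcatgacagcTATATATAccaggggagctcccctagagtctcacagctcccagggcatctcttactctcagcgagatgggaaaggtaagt
Crygd (chr1:65063391-65063550, minus strand): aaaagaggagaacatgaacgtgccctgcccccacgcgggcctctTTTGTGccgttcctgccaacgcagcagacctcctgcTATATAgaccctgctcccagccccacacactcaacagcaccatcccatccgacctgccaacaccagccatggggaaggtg
Crygf (chr1:65926412-65926571, plus strand): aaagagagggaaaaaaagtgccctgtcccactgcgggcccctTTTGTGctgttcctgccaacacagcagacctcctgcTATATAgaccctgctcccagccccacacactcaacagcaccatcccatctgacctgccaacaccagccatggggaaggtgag
Crygs (chr16:22811361-22811520, minus strand): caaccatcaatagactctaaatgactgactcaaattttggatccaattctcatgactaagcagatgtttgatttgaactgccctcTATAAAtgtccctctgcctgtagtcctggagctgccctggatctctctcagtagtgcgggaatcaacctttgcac

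The stretches of Crygd and Crygf were 90.2% identical in a global alignment, those of Cryga and Crygb were 56.9% identical, and Crygs was between 42.0% and 47.4% identical to the 4 others. TTTGTG stood 77, 68, 66 and 68 bases before the start of Cryga, Crygb, Crygd and Crygf. TATATA or TATAAA stood between 25 and 39 bases before the start in all 5. In the full RefSeq windows, searched on both strands, TTTGTG was in 4 of the 9 members and in 17.7% of 32851 windows of the table, and TATATA was in 4 of the 9 and in 5.67%. These motifs were picked after the windows had been read, and the TATATA matches overlap each other in Cryga and Crygb. The other searched motifs were TGCTGAC, the core bound by Maf factors, which was in Cryga alone of the 9 and in 4.67% of windows, and TATAAA, in Crygs and Mip and in 13.6%. TTTGTG and TATATA were also in Crygc and Cryge. Of the alpha and beta crystallins, only Cryaa, Cryba1, Cryba4, Crybb1, Crybb2 and Crybb3 were looked at. Among these, TTTGTG was in Crybb1 and, on the other strand and 203 bases before the start, in Crybb3. TATATA was in Cryaa, TATAAA in Crybb1 and Cryba1, and TGCTGAC in Cryaa, Crybb1, Cryba1 and Cryba4. Like Crygs, these alpha and beta crystallins with a match were highest on homozygous array 1. The part of the motifs in the order of the arrays was not tested. A match describes the letters in the window and is not a shown binding site.

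Values are log2 expression as deposited by the authors after RMA, which corrects background, equalises the distributions of the arrays and summarises each probe set, so a difference of 1 in log2 stands for a 2-fold change. Values ran from 2.498 to 14.57, and the median array value lay between 6.11 and 6.21. RMA gives no zero and no detection call, so a gene near the lower end may or may not be present, and levels of different probe sets are not compared. Gnat1, the rod transducin and a marker of retina, read between 14.19 and 14.25 on the 8 arrays. Although the tissue was dissected away from pigment epithelium, Rpe65, the isomerase of that tissue, read between 9.16 and 10.48. Nxnl1 went against the label on 2 arrays: at its brighter probe set it read 8.76 on the array labelled homozygous 2 and 6.75 on that labelled heterozygous 2, against 6.13 and 6.13 on homozygous arrays 1 and 3 and 8.65 to 9.22 on the wild-type arrays and heterozygous array 1. Each comparison of genotypes is therefore also given without those 2 arrays.

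Crygb, a structural gamma crystallin, read 10.80, 5.83 and 4.67 on wild-type arrays 1, 2 and 3. It read 4.63 and 7.75 on heterozygous arrays 1 and 2 and 8.50, 4.49 and 6.19 on homozygous arrays 1, 2 and 3. Each genotype thus held a high and a low array, and all 3 genotypes overlapped. Wild-type array 1 was 5.55 above the mean of the other wild-type arrays in log2, a 46.8-fold difference within the group.

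Crygd, whose product is another core lens protein, had nearly the same course. It read 10.16, 5.21 and 4.42 on wild-type arrays 1 to 3, 4.34 and 6.99 on heterozygous arrays 1 to 2 and 8.46, 4.12 and 5.85 on homozygous arrays 1 to 3. The 8 arrays stood in the same order as for Crygb, with wild-type 1 first, homozygous 1 next, then heterozygous 2 and homozygous 3, and homozygous 2 last. The probe set that the annotation gives to both Crygc and Crygb also read highest on wild-type array 1, at 11.42, with 9.46 on homozygous array 1, 8.74 on heterozygous array 2 and 5.28 on homozygous array 2.

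Cryga was high on 1 array only. It read 8.57 on wild-type array 1 and between 3.33 and 4.21 on the 7 others, a 36.0-fold difference from the mean of wild-type arrays 2 and 3. Homozygous array 1, where Crygb and Crygd were 16.1-fold and 20.3-fold above homozygous array 2, had Cryga at 4.21, 1.40-fold above it. The probe set annotated to Cryga together with D630023F18Rik read between 4.01 and 4.38 on all 8 arrays and did not show the high value.

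Crygf lay between these patterns. It read 9.85, 5.63 and 5.70 on wild-type arrays 1 to 3, 5.88 and 6.59 on heterozygous arrays 1 to 2 and 7.16, 5.82 and 5.86 on homozygous arrays 1 to 3. Wild-type array 1 was 4.18 above the mean of the other wild-type arrays, and homozygous array 1 was 1.34 above homozygous array 2. Its probe set is of the kind whose probes can match other transcripts, and Crygf is nearly identical in sequence to its paralog Cryge, so its values may hold signal of both. The gamma crystallins are close paralogs in general, so some sharing of signal between Crygb, Crygd and their relatives cannot be told apart here.

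Crygs, the gamma crystallin of the outer, younger lens fibres, was highest on another array. It read 9.44, 6.21 and 4.53 on wild-type arrays 1 to 3, 5.14 and 9.19 on heterozygous arrays 1 to 2 and 10.47, 4.41 and 8.50 on homozygous arrays 1 to 3. Homozygous array 1 was 6.06 above homozygous array 2, a 66.6-fold difference within the group as labelled, and homozygous array 3 was 4.09 above it. Heterozygous array 2 was 4.05 above heterozygous array 1, a step that was 3.12 for Crygb, 2.65 for Crygd, 0.71 for Crygf and 0.165 for Cryga. Such steps between homozygous or heterozygous arrays, here and for the other members, set an array low in Nxnl1 against an array that kept it. Nxnl1 read 6.13 on homozygous arrays 1 and 3 and 6.75 on heterozygous array 2. It read 8.76 on homozygous array 2 and 8.65 on heterozygous array 1. The part of Nxnl1 in these steps was not tested.

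**Figure D1:**
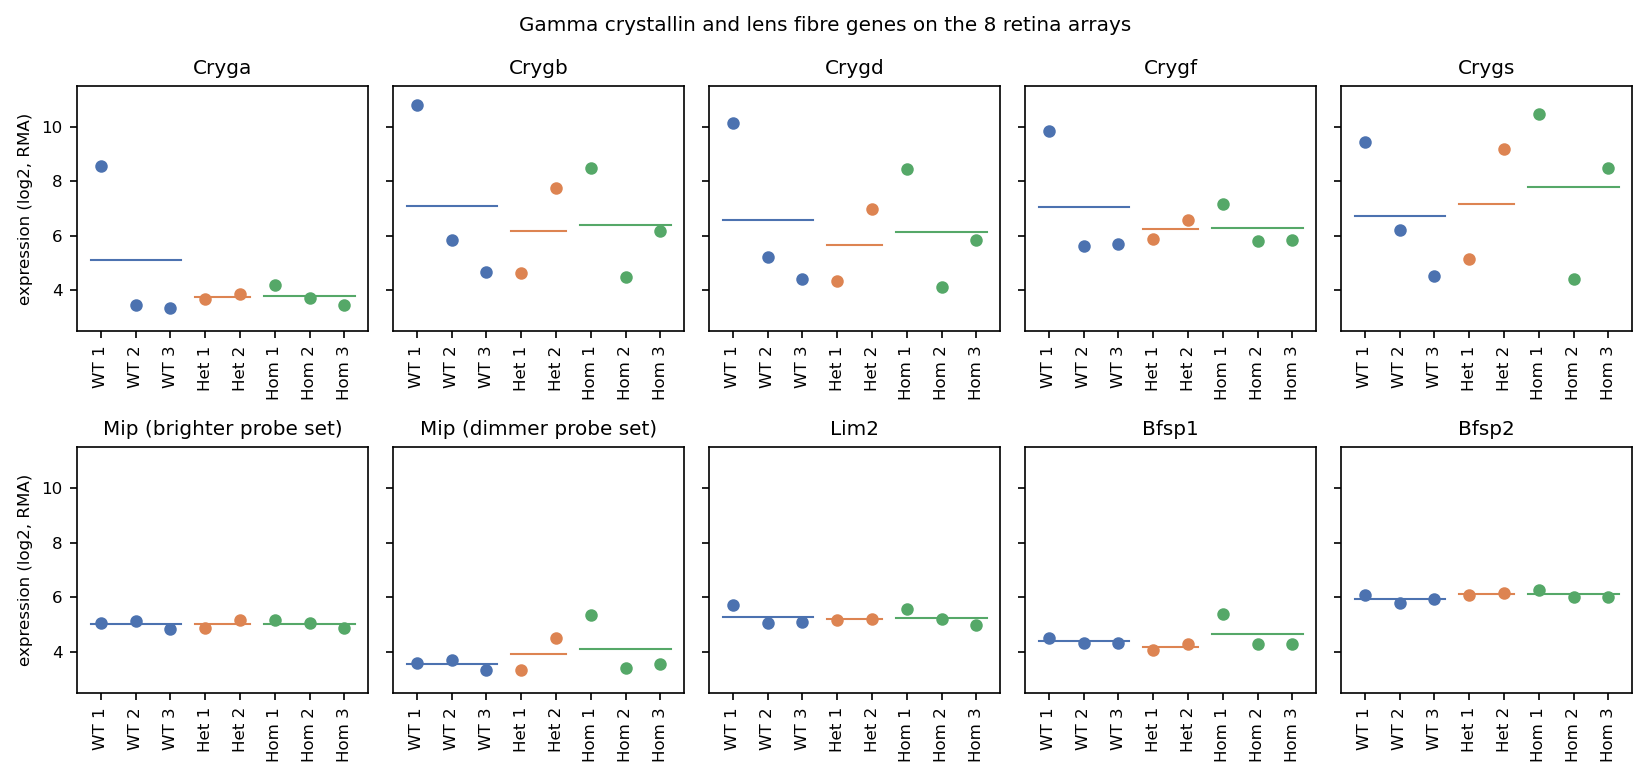
Log2 expression (RMA, vertical axis) of each probe set on the 3 wild-type (WT), 2 heterozygous (Het) and 3 homozygous (Hom) arrays, with a line at each group mean. WT array 1 is highest for Cryga (8.57), Crygb (10.80), Crygd (10.16) and Crygf (9.85), Hom array 1 is highest for Crygs (10.47), and the brighter Mip probe set stays between 4.82 and 5.17.

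The lens fibre genes varied less, with a range over the 8 arrays of at most 2.03, against at least 4.215 for the gamma crystallins. Mip, the water channel of fibre cells, read between 4.82 and 5.17 on all 8 arrays at its brighter probe set. Its dimmer probe set did vary, at 3.61, 3.69 and 3.32 on wild-type arrays 1 to 3, 3.32 and 4.50 on heterozygous arrays 1 to 2 and 5.34, 3.42 and 3.56 on homozygous arrays 1 to 3. It was thus high on homozygous array 1 and heterozygous array 2, while wild-type array 1, where Crygb was highest, lay below wild-type array 2. The probe sets of Mip therefore disagree, and both lay low on the scale, at the 34.5th and 15.4th percentile of all probe sets by mean.

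Lim2, a fibre cell membrane protein, read 5.71 on wild-type array 1, 5.58 on homozygous array 1 and between 4.98 and 5.21 on the 6 others. Bfsp1 read 5.40 on homozygous array 1 and between 4.05 and 4.52 on the 7 others. Bfsp2 ran from 5.79 on wild-type array 2 to 6.28 on homozygous array 1, the narrowest range but that of Mip. For Lim2 the same 2 arrays led as for Crygb and Crygd, with steps of 0.64 above the other wild-type arrays and 0.37 above homozygous array 2.

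Set against the whole table, the spread of the gamma crystallins was rare. A range of at least 2 over the 8 arrays was found for 6 of the 10 probe sets, the 5 gamma crystallins and the dimmer one of Mip, and for 0.881% of all probe sets. By size of range Crygb was number 3 of all 45037 probe sets, Crygs number 6, Crygd number 7, Cryga number 9 and Crygf number 19. Bfsp2 (57.4% of probe sets had a smaller range) and the brighter probe set of Mip (30.5%) were near the middle or below it. The other fibre probe sets were above it, Lim2 at 81.8%, Bfsp1 at 96.5% and the dimmer probe set of Mip at 99.2%. The standard deviation of Crygb within wild type was 3.26, where the median of all probe sets was 0.14.

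The members did not share 1 pattern. Wild-type array 1 was the highest array for 5 of the 9 genes (Cryga, Crygb, Crygd, Crygf and Lim2), as for 13.8% of all probe sets, and homozygous array 1 for the other 4 (Crygs, Mip, Bfsp1 and Bfsp2), as for 24.3%. Cryga was 4.36 higher in log2 on wild-type array 1 than on homozygous array 1, a 20.6-fold step, and Crygf was 2.69, Crygb 2.30, Crygd 1.69 and Lim2 0.13 higher there. The sign was turned for Crygs at -1.03, Bfsp1 at -0.88, Bfsp2 at -0.19 and the brighter probe set of Mip at -0.10. These arrays were chosen for comparison because they were highest, each is a single array, and no test was made.

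Between wild-type array 1 and homozygous array 1 the other crystallins of the lens differed in the direction of Crygs, not of the gamma crystallins of chromosome 1. On wild-type array 1 they too were above the mean of wild-type arrays 2 and 3, by 0.11 for Crygn to 3.49 for Cryba1. All 9 measured alpha, beta and other crystallins (Cryaa, Cryab, Cryba1, Cryba2, Cryba4, Crybb1, Crybb2, Crybb3 and Crygn) were lower on wild-type array 1 than on homozygous array 1, with a median of -1.41 and a range from -2.37 for Cryaa to -0.38 for Crybb3. Over all genes the median of that difference was -0.05, and 10950 of 18193 were lower on wild-type array 1. Cryaa, the lens alpha crystallin and chaperone, read 9.34, 7.09 and 5.77 on wild-type arrays 1 to 3, 6.12 and 10.44 on heterozygous arrays 1 to 2 and 11.72, 5.45 and 10.27 on homozygous arrays 1 to 3. For all 9 of these genes homozygous array 1 came first, and wild-type 1, heterozygous 2 and homozygous 3 made up the 4 highest arrays in varying order, as the same 4 did for 6.01% of all probe sets. These 4 arrays were also the 4 highest for 3 of the 9 members, Crygb, Crygd and Crygs. Of these, Crygs had homozygous array 1 first, while Crygb and Crygd had wild-type array 1 first. Among the 4 arrays, homozygous 1, homozygous 3 and heterozygous 2 were those low in Nxnl1, and wild-type array 1 was not. The part of Nxnl1 in this order was not tested.

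**Figure D2:**
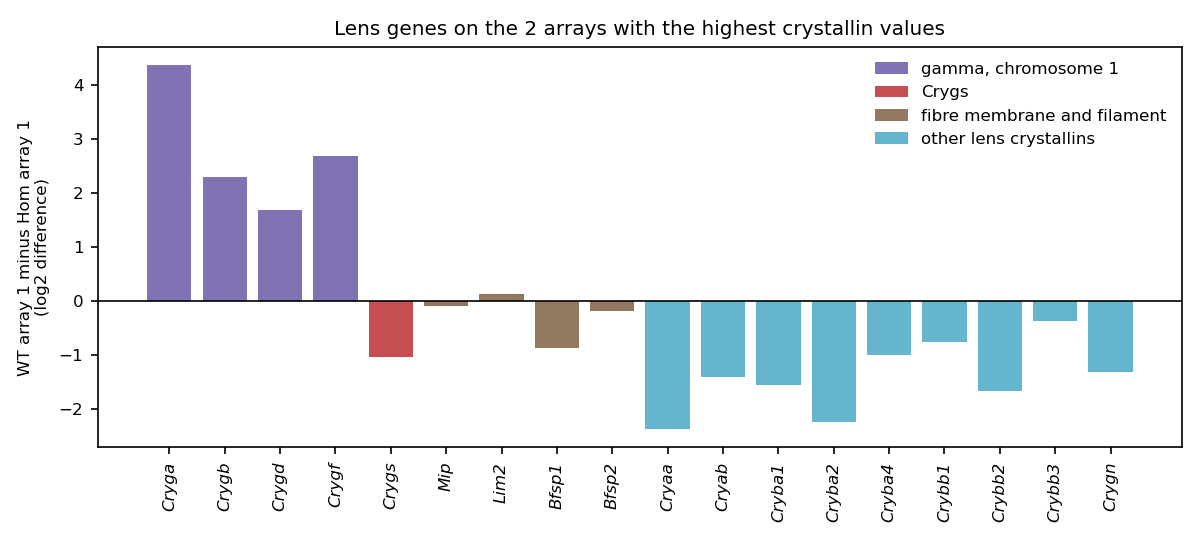
Log2 difference between WT array 1 and Hom array 1 (vertical axis) for the 9 members and 9 other lens crystallins, 1 bar per gene from its brightest probe set. The bars of Cryga (4.36), Crygf (2.69), Crygb (2.30) and Crygd (1.69) point up, and those of Crygs and all 9 other crystallins point down.

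Of the genes that flank the chromosome 1 row, 5 protein-coding genes on each side, 9 are no crystallins, and their ranges over the 8 arrays ran from 0.20 to 0.74. The highest was that of Idh1, an isocitrate dehydrogenase, which read 10.56 on wild-type array 1, 10.65 on homozygous array 1 and between 9.91 and 10.21 on the others. The remaining flanking gene is Crygf itself.

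Other fibre genes and regulators of the lens did not follow the gamma crystallins as a list. Among its 13 measured genes, which include the connexin Gja3, the transcription factors Foxe3, Hsf4, Maf, Pitx3, Prox1 and Sox1 and the nuclease Dnase2b, 3 were higher on wild-type array 1 than on homozygous array 1 and 10 were lower, with a median of -0.11. Grifin, a lens galectin, had its highest value on homozygous array 1, as Crygs did, at 5.77, 5.09 and 4.92 on wild-type arrays 1 to 3, 4.93 and 5.51 on heterozygous arrays 1 to 2 and 6.51, 5.12 and 5.88 on homozygous arrays 1 to 3. Prox1, a transcription factor of fibre cells that retinal interneurons also use, ran the other way at its brightest probe set, from 6.96 on homozygous array 1 to 8.32 on wild-type array 3. Another of its probe sets read 4.57 on homozygous array 1 and between 6.49 and 7.54 on the others. The remaining probe set did not show this drop: it read 7.47 on homozygous array 1 and was lowest on wild-type array 1, at 6.72. Foxe3, a factor of the lens epithelium, read between 5.44 and 5.71 on all 8 arrays. Crygc and Cryge by themselves, Lgsn and Lctl were not analysed here.

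Some marker lists of other tissues and signs of RNA quality moved on some of the same arrays. As a mean over genes of the deviation from each gene's own mean over the 8 arrays, the 4 gamma crystallins of chromosome 1 stood at 3.93 on wild-type array 1, 1.17 on homozygous array 1 and 0.38 on heterozygous array 2, and between -1.38 and -0.57 on the 5 others. The 9 other lens crystallins stood at 0.97, 2.38 and 1.05 on those 3 arrays, at 0.88 on homozygous array 3 and between -1.61 and -0.80 on the rest. Photoreceptor genes stayed between -0.11 and 0.08. Ganglion cell genes were highest on homozygous array 1 for 6 of 6, at 0.44, with 0.25 on wild-type array 1 and below 0 on the others. Cornea genes had a mean of 0.26 on wild-type array 1, with 2 of 9 highest there, and of 0.10 on homozygous array 1, with 4 of 9 highest there. On another baseline, the deviation from each gene's own median over the 8 arrays, their median was 0.06 and 0.14 on these arrays. Dcn, a stromal proteoglycan, read 7.03 on wild-type array 1 and between 4.92 and 5.54 on the others at its brighter probe set. Its dimmer probe set read between 3.81 and 4.07 on all 8 arrays. Of the 9 cornea genes, 5 were higher on wild-type array 1 than on homozygous array 1 and 4 were lower. The 10 pigment epithelium genes were at 0.345 and 0.33 on wild-type arrays 1 and 2, 0.20 on homozygous array 1 and 0.11 on homozygous array 2, and at or below -0.12 on the other 4. Müller glia genes stood at 0.17, 0.11, 0.055 and 0.14 on wild-type 1, homozygous 1, heterozygous 2 and homozygous 3 and at or below -0.01 on the others. Iris and ciliary body genes were highest on homozygous array 3 at 0.21, with 0.10 on wild-type array 1 and 0.06 on homozygous array 1. The 3 blood genes stood at 0.16 on wild-type array 1 and 0.001 on homozygous array 1.

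**Figure D3:**
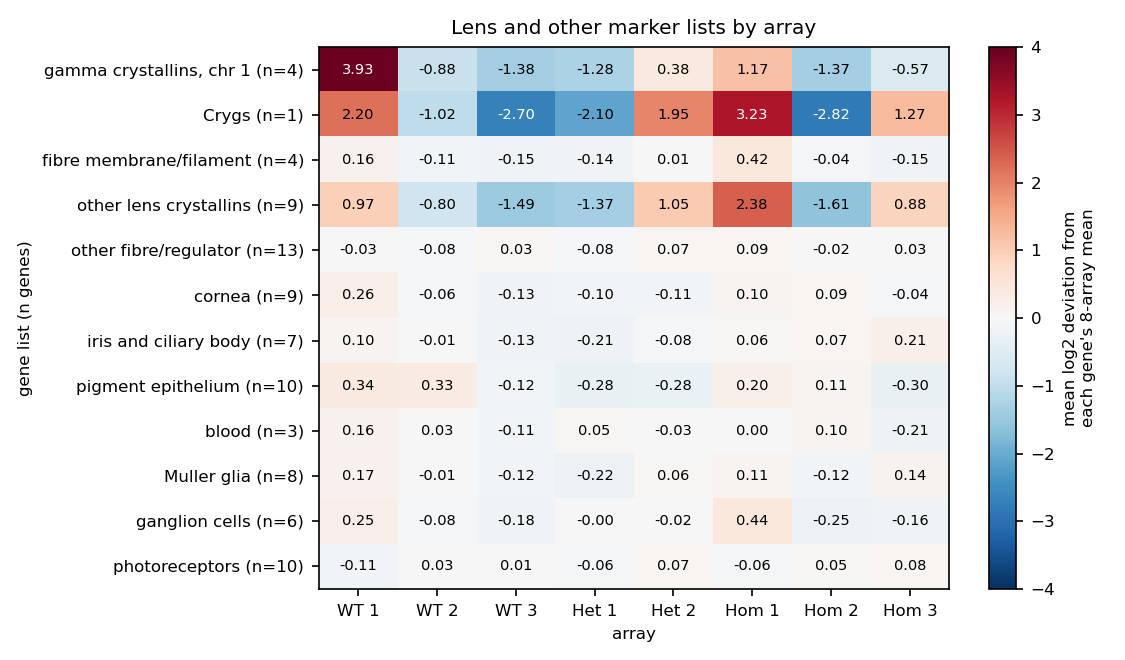
Mean log2 deviation (colour and printed value) of each gene list (rows) on each array (columns) from each gene's own mean over the 8 arrays. The gamma crystallins of chromosome 1 peak on WT array 1 at 3.93, Crygs and the other lens crystallins peak on Hom array 1 at 3.23 and 2.38, and photoreceptor genes stay between -0.11 and 0.08.

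Actin control probes near the 5' end lose signal against those near the 3' end when RNA is broken, and their log2 difference was lowest on wild-type array 1 at -1.81, where the gamma crystallins of chromosome 1 were highest, and on homozygous array 1 at -1.74, where Crygs and the 9 other lens crystallins were highest. It was -1.04 and -0.80 on wild-type arrays 2 and 3, -0.90 and -0.71 on heterozygous arrays 1 and 2, and -0.69 and -1.26 on homozygous arrays 2 and 3. The list of other lens crystallins had mean levels of 5.89 to 8.34 in wild type, 6.003 to 8.43 in the heterozygous group and 5.76 to 9.75 in the homozygous group. That of pigment epithelium had 8.12 to 8.59, 7.96 to 7.96 and 7.94 to 8.44. The part of RNA quality and of these other cell types in the crystallin values was not tested, and in bulk RNA more cells of a type and more RNA per cell cannot be told apart.

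Between homozygous null and wild-type retinas, the contrast for loss of Nxnl1, none of the 9 genes changed by the test. The 4 gamma crystallins of chromosome 1 were lower on average and Crygs was higher. The standard error exceeded the difference for Crygb, Crygd, Crygf and Crygs and was slightly below it for Cryga. Limma called 0 of the 10 member probe sets and 0% of all 45037 after Benjamini-Hochberg adjustment, and for the members the adjusted p was 0.9999 and the unadjusted p ran from 0.203 to 0.907. At an unadjusted p under 0.05 limma had 411 probe sets (0.913%), none of them a member, and an ordinary test without moderation called 0 after adjustment and 819 before it.

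Crygs had a mean of 7.80 ± 3.09 (SD, n = 3) in the homozygous group and 6.73 ± 2.49 (SD, n = 3) in wild type, a log2 difference of 1.07 (SE 1.79). For Cryga the means were 3.795 ± 0.38 (SD, n = 3) and 5.13 ± 2.99 (SD, n = 3), and the difference was -1.33 (SE 1.21). The differences were -0.71 (SE 1.66) for Crygb, -0.45 (SE 1.62) for Crygd and -0.78 (SE 1.03) for Crygf. Those of the fibre genes were 0.03 (SE 0.13) for the brighter and 0.57 (SE 0.50) for the dimmer probe set of Mip, -0.02 (SE 0.21) for Lim2, 0.28 (SE 0.27) for Bfsp1 and 0.16 (SE 0.12) for Bfsp2. The median over the 9 genes was -0.02, and that over all genes was 0.02. Of the 9 genes 4 were above 0, as were 11007 of all 18193 genes and 52.1% of all probe sets.

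A difference of at least 1 in size was found for Cryga and Crygs, 2 of the 9, and for 0.0533% of all probe sets, so differences of this size were more common among these genes than in the table while none exceeded the spread between arrays. No member had groups that did not overlap, against 4.47% of all probe sets. In the list of other lens crystallins 9 of 9 were above 0 with a median of 0.95 and values up to 1.74 (SE 1.74) for Cryaa, and none passed the test.

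The direction for the gamma crystallins rested on single arrays. Without wild-type array 1 the difference turned to 0.39 (SE 0.21) for Cryga, 1.14 (SE 1.23) for Crygb, 1.33 (SE 1.21) for Crygd and 0.61 (SE 0.41) for Crygf, and that of Crygs rose to 2.42 (SE 1.78). Without homozygous array 1 Crygs turned to -0.27 (SE 1.76), and Crygb and Crygd went to -1.76 (SE 1.72) and -1.61 (SE 1.61). Without the arrays labelled heterozygous 2 and homozygous 2, whose Nxnl1 went against the label, Crygb was 0.25 (SE 1.85), Crygd 0.56 (SE 1.81), Crygf -0.55 (SE 1.34), Cryga -1.29 (SE 1.61) and Crygs 2.76 (SE 1.43). No member passed the adjusted threshold in any of these fits.

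**Figure D4:**
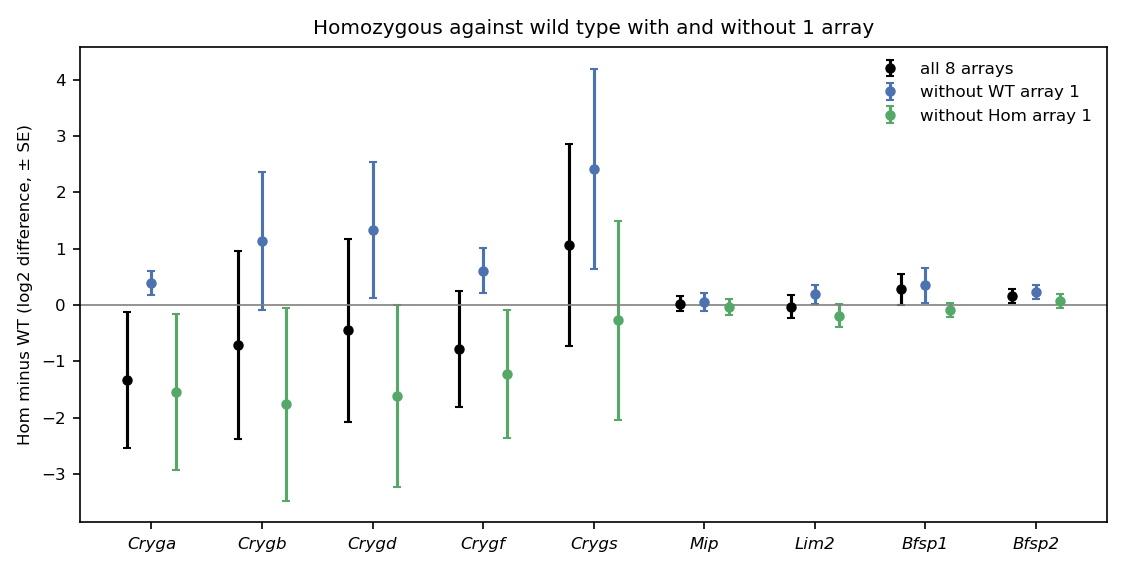
Log2 difference of the homozygous group against wild type (vertical axis, points with ± SE from limma) for each of the 9 genes, with all 8 arrays, without WT array 1 and without Hom array 1. Cryga, Crygb, Crygd and Crygf lie below 0 with all arrays and above 0 without WT array 1, and Crygs goes from 1.07 to -0.27 without Hom array 1.

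With 1 null allele, in heterozygous against wild-type retinas, no member changed by the test either: limma called 0 of 10 member probe sets and 0% of all probe sets, with 516 (1.15%) at an unadjusted p under 0.05 in the whole table and none of them a member. The differences were -1.36 (SE 1.36) for Cryga, -0.91 (SE 1.86) for Crygb, -0.93 (SE 1.81) for Crygd, -0.83 (SE 1.15) for Crygf and 0.43 (SE 2.00) for Crygs. Of the 9 genes 3 were above 0, as were 8667 of all 18193 genes and 50.6% of all probe sets. A difference of at least 1 in size was found for Cryga alone, 1 of 9, and for 0.0422% of all probe sets. Bfsp1 was the only member whose groups did not overlap, with 4.05 and 4.27 in the heterozygous group below wild-type values of 4.31 to 4.52, where 14.2% of all probe sets did not overlap, and its difference of -0.23 (SE 0.31) did not pass. Without the arrays labelled heterozygous 2 and homozygous 2, where the lone heterozygous array is assumed to vary like the other groups, Crygs turned to -1.59 (SE 1.81) and Crygb and Crygd went to -2.47 (SE 2.34) and -2.25 (SE 2.28), and none passed.

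Between homozygous and heterozygous retinas the 9 differences lay between -0.02 and 0.63. Of these 8 were above 0, as were 11581 of 18193 genes and 53.5% of all probe sets. The median of the 9 was 0.07, where that of all genes was 0.03. Limma called 0 of 10 member probe sets and 0% of all, with 405 (0.899%) at an unadjusted p under 0.05 and no member among them. Crygs differed by 0.63 (SE 2.00) and Bfsp1 by 0.51 (SE 0.31). Without the arrays labelled heterozygous 2 and homozygous 2, Crygs differed by 4.35 (SE 1.92), Crygd by 2.81 (SE 2.42) and Crygb by 2.71 (SE 2.48), again with 1 heterozygous array and none past the adjusted threshold. Bfsp1 again was the one whose groups did not overlap, as for 12.4% of all probe sets. No member differed by 1 or more in this comparison, against 0.0444% of all probe sets. These comparisons share arrays, those against wild type the wild-type group and the last pair the homozygous or heterozygous group, so their values are not independent.

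Outside the members, the genes whose course over the 8 arrays was most like the mean of the 9 members were no lens genes. By Pearson's r with that mean, among genes above the median level, the nearest were Lratd2, Chm, Galnt13, Avl9, Abcd2, Gabra2, Glra3, Vwc2, Tmod2 and Aven, with r from 0.973 to 0.985 over 8 arrays. Since r chose them, no p is given. Their changes were small beside those of the gamma crystallins: the glycine receptor subunit Glra3 read 9.43, 8.59 and 8.41 on wild-type arrays 1 to 3, 8.50 and 8.86 on heterozygous arrays 1 to 2 and 9.27, 8.28 and 8.77 on homozygous arrays 1 to 3. Chm, a Rab escort protein, read 9.58 and 9.39 on wild-type array 1 and homozygous array 1 and between 8.69 and 9.14 on the others. The arrays that led these genes were the 2 with the lowest actin difference, whose part in this likeness was not tested. With the same mean profile r was 0.998 for Crygd, 0.994 for Crygb, 0.927 for Crygf, 0.865 for Crygs, 0.851 for Lim2 and 0.827 for Cryga. It was 0.573 for Bfsp1, 0.572 for Bfsp2 and 0.51 for the brighter probe set of Mip. Each member is part of that mean, and those of widest range weigh most in it. Their r is thus not comparable with that of genes outside it. For the other lens crystallins, which are outside it, r ran from 0.463 (Crygn) to 0.927 (Crybb3).

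Between members the likeness was uneven. Crygb and Crygd had an r of 0.994 with each other over the 8 arrays, Cryga and Crygf one of 0.971, and Cryga and Crygs one of 0.454. Crygs had an r of 0.867 with Crygb and 0.879 with Crygd, above the 0.817 and 0.802 that Cryga had with them, and one of 0.622 with Crygf. The brighter probe set of Mip had an r between 0.240 (with Cryga) and 0.533 (with Crygb). The arrays share normalization and RNA quality, so these values describe the 8 arrays only.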

How the data were processed

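The values are log2 expression as deposited by the authors, for each array and probe set, from RMA per the submitters' processing notes, with version and settings not given in the sources used here. RMA equalises array distributions, so each difference is relative to the bulk of transcripts. Of the 9 samples the design text names, 8 were analysed here. Of 45101 probe sets, 64 Affymetrix controls were left out. In the platform annotation 34945 of the others had 1 gene symbol, 932 several and 9160 none, and symbols were updated by gene identifier through RefSeq's GRCm38 annotation. A gene was represented by its probe set of highest mean. Group means of all 8 arrays were fitted with limma 3.58.1 in R 4.3.3 (5 residual degrees of freedom), and p-values (eBayes, two-sided) were adjusted by Benjamini-Hochberg over all 45037 probe sets at a threshold of 0.05. SE is the moderated standard error. The number of arrays limits the precision. The fit was tested on simulated data.

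All members were named. Of each of the 9 other lists, values were given for the 4 genes of smallest unadjusted p in homozygous against wild type or fewer, besides Nxnl1 and the actin controls, and the 10 genes most alike to the members were named by r. Gnat1, Crybb3, Prox1 and Idh1 fall outside this rule and were singled out after their values were seen. Members and lists were chosen with earlier results of these data known. Promoter windows are RefSeq's. Same-numbered arrays of wild type and homozygous deviated together for numbers 1 and 2 (r over probe sets of 0.62 and 0.23) and not for number 3 (-0.03), so the numbers were not taken as pairs. Alternatives were other scalings, filters, variance models, samples and a replicate block. Protein identity between the gamma crystallins was planned and not run.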

Additional observations from a re-analysis of the deposited data

How the results depend on the processing

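No member passed the adjusted threshold of limma under any alternative, and the count of probe sets called stayed at 0 except without wild-type replicate 3. Then 1 probe set with no single symbol was called in each comparison with wild type, at adjusted p of 0.0118 and 0.0195, so leaving out replicates gave 0 to 1 calls there and 0 between homozygous and heterozygous. With replicates left out in turn, differences of homozygous from wild type ran from -2.23 to 0.39 for Cryga, -1.92 to 1.14 for Crygb, -1.61 to 1.33 for Crygd, -1.49 to 0.61 for Crygf, -0.27 to 2.76 for Crygs, -0.067 to 0.11 for Mip, -0.19 to 0.19 for Lim2, -0.087 to 0.47 for Bfsp1 and 0.074 to 0.24 for Bfsp2, with -0.27 to 0.39 for the median of members. Those of heterozygous from wild type ran from -2.25 to 0.37 for Cryga, -2.47 to 0.94 for Crygb, -2.25 to 0.86 for Crygd, -1.54 to 0.56 for Crygf, -1.59 to 2.46 for Crygs, -0.14 to 0.15 for Mip, -0.21 to 0.12 for Lim2, -0.34 to -0.12 for Bfsp1 and 0.11 to 0.26 for Bfsp2, with -1.18 to 0.37 for the median. Those of homozygous from heterozygous ran from -0.18 to 0.20 for Cryga, -1.36 to 1.76 for Crygb, -0.85 to 1.803 for Crygd, -0.39 to 0.40 for Crygf, -1.39 to 2.66 for Crygs, -0.12 to 0.17 for Mip, -0.094 to 0.21 for Lim2, 0.14 to 0.69 for Bfsp1 and -0.11 to 0.032 for Bfsp2, with -0.18 to 0.40 for the median. Repeated quantile normalization, centring on the common median and the replicate block turned Mip in heterozygous against wild type to -0.0042, -0.027 and -0.082, and Bfsp2 in homozygous against heterozygous to 0.022, 0.025 and 0.0070. The replicate block called 0 probe sets in each comparison. The following exclusions and the actin covariate were chosen after seeing the data. Without the arrays labelled heterozygous 2 and homozygous 2, Crygb was 0.25 and Crygd 0.56 in homozygous against wild type, Crygs -1.59 and Mip -0.14 in heterozygous against wild type, and Bfsp2 0.071 in homozygous against heterozygous. Without wild-type array 1 and homozygous array 1, which have the lowest actin difference, homozygous against wild type gave 0.19 for Cryga, 0.091 for Crygb, 0.17 for Crygd, 0.17 for Crygf, -0.0075 for Mip, 0.027 for Lim2 and -0.019 for Bfsp1. Heterozygous against wild type gave 0.37 for Cryga, 0.94 for Crygb, 0.86 for Crygd, 0.56 for Crygf and 0.12 for Lim2. Homozygous against heterozygous gave -0.18 for Cryga, -0.85 for Crygb, -0.68 for Crygd, -0.39 for Crygf, -0.70 for Crygs, -0.044 for Mip and -0.094 for Lim2. With the actin difference as a covariate, heterozygous against wild type gave 0.998 for Crygb, 0.997 for Crygd, 0.30 for Crygf, 0.11 for Lim2 and 0.015 for Bfsp1, and homozygous against heterozygous gave -1.23 for Cryga, -1.77 for Crygb, -1.51 for Crygd, -1.12 for Crygf, -1.41 for Crygs, -0.020 for Mip and -0.14 for Lim2. The cause of these turns was not tested. Other planned settings were fitting only the groups compared, an intensity trend with robust prior and keeping only brighter probe sets. They leave each difference of group means as it is, so they could not turn a member. Keeping only brighter probe sets left Crygb, Crygd, Crygf and Crygs alone of the members. Averaging a gene's probe sets could alter Mip alone, and it turned no member. With 2 or 3 arrays a group and no detection call, small differences of dim genes such as Mip cannot be resolved.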
